A study of Mus musculus with 30 samples.

Results

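The transcripts described here belong to 8 genes whose RNA stood far above background when PTBP1 was immunoprecipitated from uninjured mouse sciatic nerve: Ube2e1, Bard1, Agpat5, Dhrs2, Dph6, Csrnp2, Prdm1 and Wfdc13. The genes were chosen by name from the naive PTBP1 comparison, so their levels in that comparison are a description and carry no test. Every listed transcript of each gene was taken by its gene symbol. This gave 12 transcripts of the 20423 listed in the series, of which 11 stood among the 15041 transcripts of the PTBP1 libraries. The twelfth, Prdm1-203, was listed only with the injured nucleolin libraries.

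Axoplasm, the cytoplasm extracted from nerve, was prepared from mouse sciatic nerves 7 days after a crush (injured) or from naive nerves, with 10 nerves pooled per sample. RNA was sequenced from immunoprecipitates (IP) made with an antibody against PTBP1 or nucleolin, from IPs in which the antibody had first been bound by its blocking peptide (blocked IP), and from input extract. Each of these 5 fractions was sequenced in injured and in naive nerve, which gave 10 groups of 3 independent biological repeats and 30 libraries. The labels give no strain, sex or age, and axoplasm of whole nerve holds RNA of Schwann cells, fibroblasts and immune cells besides axons.

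PTBP1 is an RNA-binding protein that recognises pyrimidine-rich RNA, stretches of C and U. In the nucleus it represses splicing of exons that lie beside such stretches, and in the cytoplasm it takes part in the stability, translation and localisation of mRNAs. Nucleolin is an abundant RNA-binding protein of the nucleolus that also works in the cytoplasm and in axons. The 8 genes do not share a pathway. Ube2e1 is a ubiquitin-conjugating enzyme and Bard1 the RING-domain partner of Brca1 in a ubiquitin ligase that acts in DNA repair. Agpat5 is an acyltransferase of phospholipid synthesis, Dhrs2 a short-chain dehydrogenase/reductase, and Dph6 the enzyme of the last step of diphthamide synthesis on elongation factor 2. Csrnp2 is a nuclear protein with transcription factor activity, Prdm1 (Blimp-1) a transcriptional repressor best known from plasma cells, and Wfdc13 a small protein of the WAP-domain family.

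Because PTBP1 recognises pyrimidine-rich RNA, the longest unbroken run of C and T is shown first for 7 of the 8 leading transcripts. The leading transcript is that with the highest naive PTBP1 fold change of its gene. Sequences come from the GENCODE M21 transcripts (build GRCm38) and are written 5′ to 3′ as DNA, to at most 30 bases of each run. Capitals mark the motif TCTT, the motif CTCTCT and the motif TTCTCT, which were searched on the transcript's own strand only and may overlap one another.
Ube2e1-203: cccctTTCTCTCTCTCTCTCTTTCTTTCTT
Bard1-201: ttccctttctccctccttccctccctccct
Agpat5-202: tctctcccTTCTCTCTCTCTCTCTCTCTCT
Dhrs2-201: cttctcctct
Dph6-206: tCTCTCTccCTCTCTcccTCTTctccttct
Prdm1-201: ctctccTCTTccTCTTccTCTTCTTCTTcc
Wfdc13-201: tCTCTCTCTCTCTCTCTCTCTCTCTCTccc

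The run had 47 bases or more in 7 of the 8 leading transcripts and lay outside coding sequence in those 7. Of all transcripts of the PTBP1 libraries with a sequence, 3.36% had a run of at least 47 bases. How often such runs lie outside coding sequence in all transcripts was not measured. The printed bases of Ube2e1-203 lie at chr14:18325255-18325284 on the minus strand, in exon 2 of 2 of a retained-intron transcript, and the whole run had 89 bases. In Bard1-201 the run had 99 bases in the 3′ UTR, in exon 11 of 11 (printed part chr1:71029590-71029619, minus strand). The Agpat5-202 run had 55 bases in the 3′ UTR, in exon 8 of 8 (chr8:18883911-18883940, plus strand). Dph6-206 is annotated as a retained-intron transcript, and its run of 76 bases lies in exon 7 of 7 (chr2:114521474-114521503, minus strand). The runs of Ube2e1-203 and Dph6-206 overlapped no exon of a coding transcript of their gene. Csrnp2-201 had a run of 70 bases in its 3′ UTR. Prdm1-201 had 48 bases in the 3′ UTR, in exon 8 of 8 (chr10:44437848-44437877, minus strand), and Wfdc13-201 had 47 in the 3′ UTR, in exon 2 of 2 (chr2:164687591-164687620, plus strand). Dhrs2-201 was the exception, with a longest run of 10 bases in its coding sequence (chr14:55241230-55241239, plus strand).

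Over all 11 member transcripts the median longest run was 48 bases, against 14 over the 14737 transcripts of the PTBP1 table that had a sequence. Longer transcripts hold longer runs, so each run was also set beside transcripts within 20% of its length. A run as long was held by 0.843% of transcripts of similar length to Ube2e1-203, 0.897% for Wfdc13-201, 1.08% for Bard1-201, 1.2% for Dph6-206 and 1.89% for Csrnp2-201. The shares were 5.21% for Prdm1-201, 9.34% for Agpat5-202, which is 10779 bases long, and 13.5% for the Dph6-201 run of 23 bases. Ube2e1-201, Ube2e1-202 and Dhrs2-201 had runs of 12, 9 and 10 bases, all shorter than the median of all transcripts. The sequence measures used no count, but the genes were chosen with results in view and the comparison has no test.

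**Figure D1:**
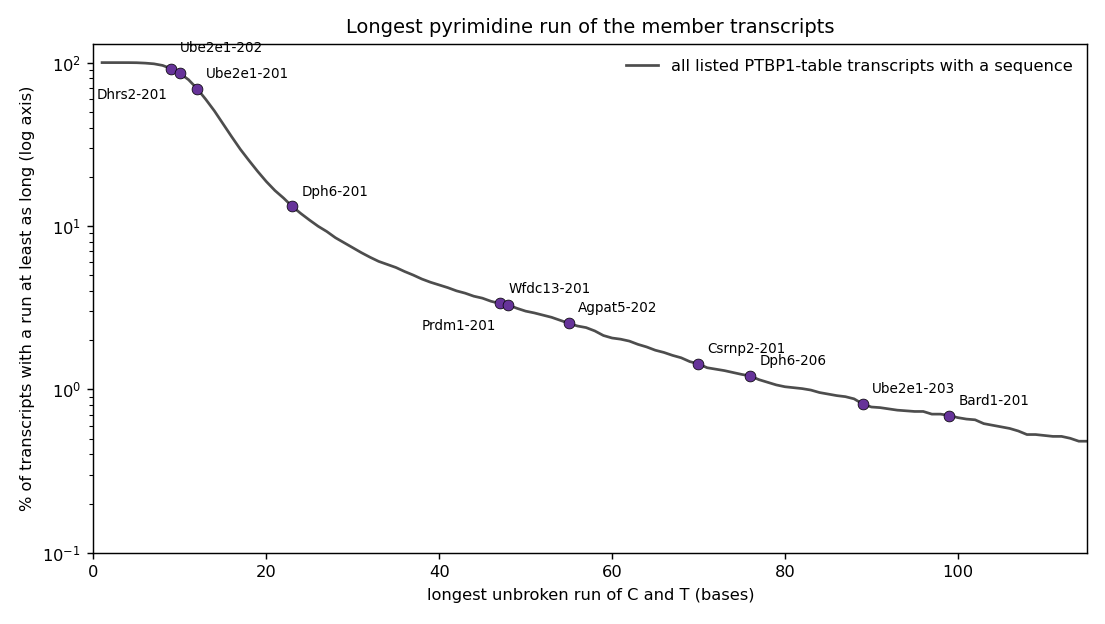
The x axis is the longest unbroken run of C and T in a transcript, in bases, and the log y axis the percentage of PTBP1-table transcripts whose longest run is at least that long. The points are the 11 member transcripts: 7 lie at 47 bases or more, as do 3.36% of all 14737 transcripts, whose median is 14.

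Short pyrimidine motifs were also denser in most members. TCTT occurred at a median of 7.33 per kb in the members and 5.11 per kb in all transcripts, with 9 of 11 members above. CTCTCT occurred at 2.13 against 0.31 per kb (8 of 11 above) and TTCTCT at 1.11 against 0.41 per kb (10 of 11 above). Wfdc13-201 had the highest CTCTCT density, 20.5 per kb, a density that 0.109% of all transcripts reached. Ube2e1-203 had the highest TCTT density, 13.8 per kb, reached by 0.604%. The share of pyrimidine bases was less set apart, at a median of 51.4% against 49.3%. The tables hold 1 count per transcript, so where along a transcript the reads lay was not measured.

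Counts over listed transcripts summed to between 7536033 and 22919174 per library. Within each PTBP1 IP group library 3 stood apart: 1.64% of transcripts were at 0 in injured IP 3 and 3.10% in naive IP 3, against 6.46% to 19.3% in IP libraries 1 and 2. This was not particular to PTBP1 IP. Library 3 also had the fewest at 0 in PTBP1 blocked IP (16.9% injured, 15.8% naive) and in every nucleolin group. In naive input it had the most (1.78%). Library 3 was also the lowest for the members, in 9 of 11 transcripts in injured IP and 10 of 11 in naive IP, where 31.5% and 26.0% of all transcripts had their lowest value in library 3. Levels are given as CPM, the counts of a transcript scaled to a common library size after TMM scaling of the totals, and counting intervals and floors cover counting error only. CPM is not corrected for length and does not rank different transcripts.

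In naive nerve the leading transcripts were counted in every PTBP1 IP library and were at or near 0 when the antibody was blocked. These are the values the choice of genes used. Ube2e1-203 had 288, 73.1 and 14.1 CPM in naive IP libraries 1, 2 and 3, and no count in any naive blocked library. Bard1-201 had 37.3, 29.1 and 1.39 CPM in IP and likewise no count in blocked IP. Both were lowest in IP library 3, and no IP library overlapped a blocked one. Against a floor of 3 counts over the blocked group, Ube2e1-203 was at least 2018-fold higher in IP and Bard1-201 at least 371-fold higher.

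Agpat5-202 had 1469, 541 and 36.2 CPM in naive IP, against 0.495, 0.0556 and 0.799 CPM in naive blocked IP. Dhrs2-201 had 93.9, 104 and 11 CPM in IP and 0.0990, 0 and 0.0399 CPM in blocked IP. Dph6-206 had 21.2, 101 and 10.7 CPM in IP and no count in blocked IP, which made it at least 802-fold higher. The 3 enzymes were thus well separated, though the IP libraries of Agpat5-202 themselves ranged over 36.2 to 1469 CPM. Pooled over libraries, the Agpat5-202 rate in IP was 1055 times that in blocked IP (95% counting interval 743 to 1553), and that of Dhrs2-201, with 3 blocked counts, 1190 times (407 to 5772).

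Among the nuclear regulators, Csrnp2-201 had 195, 209 and 24.8 CPM in naive IP and 0.693, 0.0556 and 0.559 CPM in naive blocked IP. Prdm1-201 had 8.57, 29.6 and 3.18 CPM in IP, with no count in blocked IP, and was at least 248-fold higher. Wfdc13-201 had 332, 73.4 and 8.91 CPM in IP and a single count in blocked library 3 (0.0399 CPM). The groups did not overlap for any of these. Per kilobase of transcript, mean recovery in naive IP was highest for Wfdc13-201 (129 CPM per kb), followed by Agpat5-202 (63.3), Dhrs2-201 (54.9), Ube2e1-203 (45.3), Csrnp2-201 (32.7), Dph6-206 (17.1), Bard1-201 (3.99) and Prdm1-201 (2.61). The libraries of each transcript spread so widely that neighbours in this order cannot be told apart.

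The remaining forms of Ube2e1 and Dph6 did not stand as high. Ube2e1-202 had 53.9, 7.82 and 0.716 CPM in naive IP and 0.495, 0 and 0.280 CPM in blocked IP. Dph6-201 had 4.12, 2.58 and 2.54 CPM in IP and 0, 0 and 1.08 CPM in blocked IP. The coding form Ube2e1-201 had 27.7, 14.0 and 16.9 CPM in IP but 37.4, 0 and 15.4 CPM in blocked IP, so its groups overlapped.

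The fitted log2 fold changes of the 8 leading transcripts in naive nerve ran from 8.32 for Csrnp2-201 to 14.13 for Ube2e1-203, which ranked 1 of the 14540 transcripts tested. Over all 11 the median was 10.52, or 8.54 with groups at 0 set to their bound, beside 0.05 over all transcripts. In 10 of 11 every IP library lay above every blocked library, as in 9.26% of all transcripts. All 11 passed edgeR's filter on low counts. By the deposited listing rule of 5 counts in all 3 libraries of a group, Ube2e1-201 and Ube2e1-202 are listed through naive IP alone. edgeR's quasi-likelihood test called 0 of 14540 transcripts (0%) at an adjusted p of 0.05, with 11.5% higher at an unadjusted p under 0.05, and DESeq2 called 7.63% higher. In the authors' deposited table of the 12 PTBP1 libraries, the 8 leading transcripts ranked between 1 (Prdm1-201) and 26 (Dhrs2-201) by the false discovery rate of the naive contrast. Nothing is read from these ranks, since the genes were chosen on them.

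**Figure D2:**
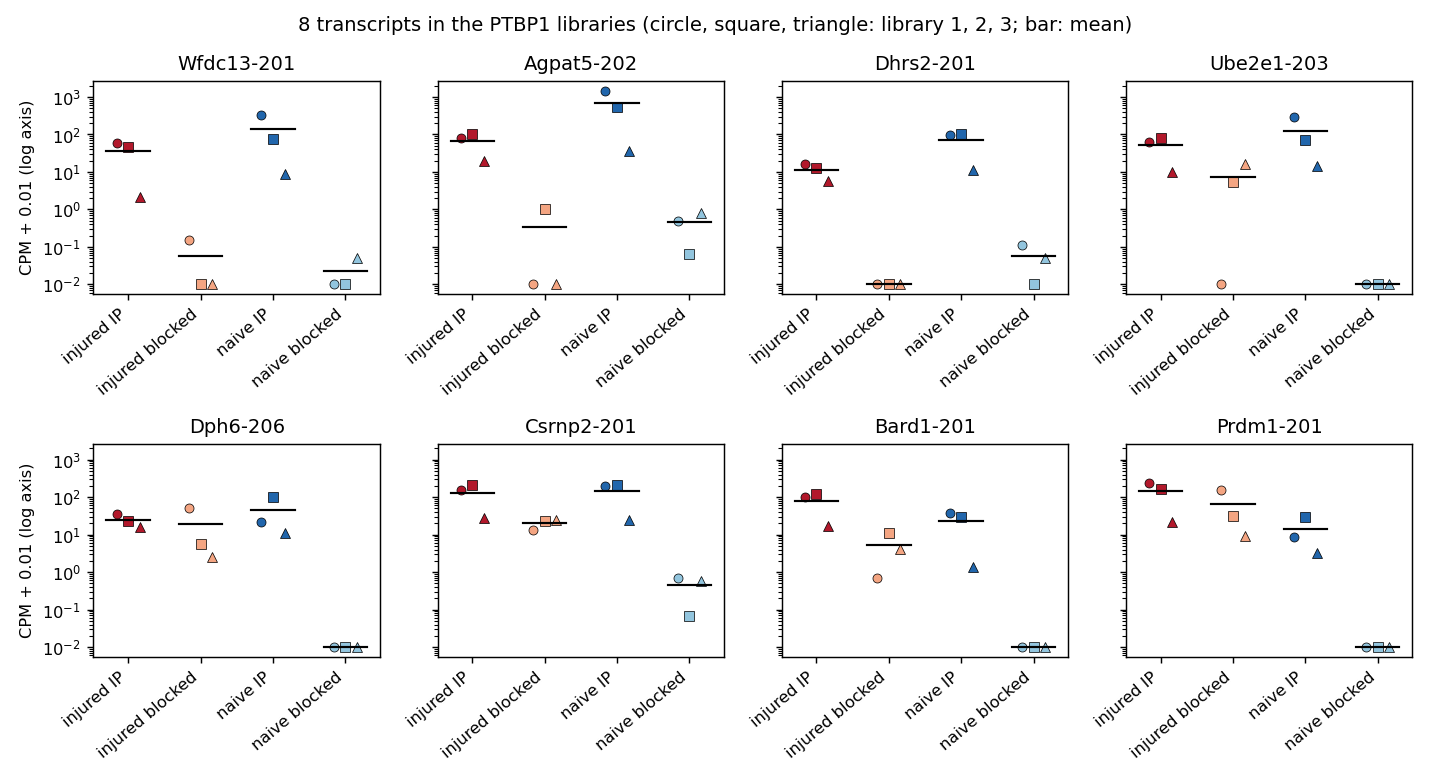
The leading transcript of each gene is plotted in injured IP, injured blocked IP, naive IP and naive blocked IP of PTBP1, with the level in CPM on a log axis, with a small offset so that 0 can be drawn, a symbol per library and a bar at the mean of 3. Naive blocked libraries lie at or below 0.799 CPM for all 8, while injured blocked libraries of Prdm1-201 reach 152 CPM and those of Dph6-206 reach 50.2 CPM. The naive values were used to choose the genes.

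The injured libraries, whose contrast the choice of genes did not use, asked whether the same transcripts were recovered with PTBP1 after crush. They stand in the same deposited table of 12 PTBP1 libraries as the naive ranks, so full independence from the choice cannot be claimed. Wfdc13, Dhrs2 and Agpat5 again stood high above their blocked libraries, Bard1 and Csrnp2 stood above them by less, and the IP and blocked libraries of Ube2e1-203, Prdm1 and Dph6-206 overlapped. Dhrs2-201 had 16.4, 12.4 and 5.73 CPM in injured IP and no count in injured blocked IP, at least 164-fold higher. Wfdc13-201 had 60.5, 47.5 and 2.18 CPM in IP, against 0.139, 0 and 0 CPM in blocked IP. With 2 counts in the blocked group, its pooled rate was 666 times higher in IP (counting interval 184 to 5504). Agpat5-202 had 78.6, 99.8 and 19.95 CPM in IP, against 0, 1.00 and 0 CPM in blocked IP, a fitted log2 fold change of 7.75 ± 1.79 (SE), or 13.25 without blocked library 2, the blocked library that held its counts.

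Adjusted over all 14540 transcripts, edgeR's p was 0.217 for each of Dhrs2-201, Wfdc13-201 and Agpat5-202, and none was called. DESeq2 gave adjusted p-values of 1.25e-07 for Dhrs2-201, 2.36e-05 for Wfdc13-201 and 0.000302 for Agpat5-202. In the authors' deposited table the injured contrast had false discovery rates of 0.00111, 6.04e-05 and 0.000113 for the same transcripts. All 3 were higher in IP in 3 of 3 libraries, and whether they passed depended on the test.

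Bard1-201 had 104, 123 and 17.5 CPM in injured IP, against 0.697, 10.7 and 4.11 CPM in injured blocked IP. Its log2 fold change was 3.97 ± 1.53 (SE), with an adjusted p of 0.289 by edgeR and 0.0446 by DESeq2. Csrnp2-201 had 153, 217 and 28.2 CPM in IP, against 13.0, 23.8 and 24.8 CPM in blocked IP, a log2 fold change of 2.69 ± 1.04 with an adjusted p of 0.277 by edgeR and 0.0706 by DESeq2. For Csrnp2-201 the lowest IP library exceeded the highest blocked library by only 28.2 against 24.8 CPM.

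Ube2e1-203 overlapped, with 62.6, 81.6 and 9.97 CPM in injured IP and 0, 5.46 and 15.9 CPM in injured blocked IP (log2 fold change 2.85 ± 1.64, edgeR adjusted p = 0.566). Prdm1-201 had 245, 167 and 21.2 CPM in injured IP, but also 152, 32.1 and 9.42 CPM in blocked IP (1.16 ± 1.21, edgeR adjusted p = 0.842). Dph6-206 had 34.7, 22.7 and 15.6 CPM in IP and 50.2, 5.46 and 2.58 CPM in blocked IP (0.33 ± 1.37, edgeR adjusted p = 0.981). The groups of all 3 overlapped. Between libraries of the same number, Prdm1-201 was higher in IP in 3 of 3 pairs, and Ube2e1-203 and Dph6-206 in 2 of 3. Without blocked library 1 the log2 fold changes were 2.79 for Prdm1-201 and 2.59 for Dph6-206, and without blocked library 3 they were 0.76 and −0.09. Dph6-201 had 25.5, 15.9 and 4.24 CPM in IP and 1.46, 1.55 and 2.98 CPM in blocked IP, without overlap (2.92 ± 1.94, edgeR adjusted p = 0.654). Ube2e1-202 was counted only in injured IP library 3, and Ube2e1-201 stayed under 4 CPM in every injured PTBP1 library.

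Counted together, 0 of 11 members were called by edgeR in injured nerve, as were 0 of 14540 transcripts (0%). At an unadjusted edgeR p under 0.05, 6 of 11 were higher in IP, beside 10.8% of all transcripts. The 6 were Csrnp2-201, Agpat5-202, Bard1-201, Dhrs2-201, Wfdc13-201 and Ube2e1-202, the last with counts in injured IP library 3 alone. DESeq2 called 4 of 11, beside 6.11% of all transcripts, and the authors' deposited table called 3 of 11, beside 7.63%. In 6 of 11 every IP library lay above every blocked library, beside 16.6%. The median log2 fold change was 2.92 in the members and 0.02 over all transcripts. Without injured IP library 3, the library that stood apart, the log2 fold changes were 10.94 for Dhrs2-201, 10.04 for Wfdc13-201, 8.17 for Agpat5-202, 4.45 for Bard1-201 and 3.17 for Csrnp2-201, with edgeR adjusted p-values from 0.102 to 0.267 and 0 members called.

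Some members had more counts in injured than in naive blocked IP. The genes were chosen for high naive IP over naive blocked IP, so low naive blocked counts are part of that choice. A change of background with injury can therefore not be read from these counts. In blocked IP, Prdm1-201 had 2764 counts over the 3 injured libraries and none over the 3 naive ones, at least 1161-fold more against the floor. Dph6-206 had 845 counts in injured and 0 in naive blocked IP, Ube2e1-203 had 454 and 0, Bard1-201 had 230 and 0, and Csrnp2-201 had 1063 and 29. Dhrs2-201, Wfdc13-201 and Agpat5-202 had 0, 2 and 11 counts in injured blocked IP and 3, 1 and 31 in naive blocked IP. These 3 members were thus near 0 in blocked PTBP1 IP of both conditions, whereas the other 5 were not in injured blocked PTBP1 IP. These values share naive libraries with the choice of genes and have no test of their own. In IP itself, Agpat5-202 averaged 66.1 ± 41.4 CPM in injured and 682 ± 727 CPM in naive nerve, and Prdm1-201 averaged 144 ± 114 CPM in injured and 13.8 ± 14.0 CPM in naive nerve (SD, n = 3 each), and the libraries of each overlapped between conditions.

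Recovery was next set against the input extract, which asks whether an IP holds more of a transcript than the RNA it was made from. In injured nerve 8 of the 9 members listed in both tables lay above input in every library, beside 14.8% of all transcripts. The exception was Ube2e1-201, below input in every library, with a log2 fold change of −3.52 ± 1.92 (SE). Ube2e1-203 was the furthest above input at 5.87 ± 1.79, followed by Prdm1-201 (4.31 ± 1.26), Dph6-201 (4.17 ± 1.57), Agpat5-202 (4.08 ± 1.39), Dph6-206 (3.95 ± 1.32), Csrnp2-201 (3.21 ± 0.93), Bard1-201 (3.08 ± 1.22) and Dhrs2-201 (1.92 ± 1.10). The median was 3.95, against −0.06 over the 12393 transcripts tested. Injured blocked IP also averaged above injured input for Prdm1-201 (64.4 against 8.4 CPM), Dph6-206 (19.4 against 1.77) and Ube2e1-203 (7.11 against 0.909). The same held for Csrnp2-201 and Dph6-201, while Agpat5-202, Dhrs2-201, Bard1-201 and Ube2e1-201 averaged below input. PTBP1 and input libraries were scaled apart for these means, which have no test. An excess over input was thus also found with the antibody blocked.

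By edgeR 0 of these 9 were called, with adjusted p-values of 0.118 or more, where 1.02% of all transcripts were called. At an unadjusted p under 0.05, 7 of 9 were higher, beside 5.67% of all transcripts, and DESeq2 called the 7 highest, from Ube2e1-203 to Bard1-201, beside 4.35%. A fit of only the 6 libraries compared also called 7 of 9, beside 6.18%, and the fit without injured IP library 3 called 1, Csrnp2-201. In naive nerve, where the IP libraries are those the choice used, the log2 values over input were 6.04 for Agpat5-202, 5.42 for Ube2e1-203, 4.85 for Dph6-206, 4.28 for Prdm1-201, 3.77 for Bard1-201, 3.58 for Csrnp2-201 and 2.89 for Dhrs2-201, given as a description. Wfdc13-201 and Ube2e1-202 were not listed in the input table and are not part of these counts.

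Of the 11 PTBP1-table members, 3 are retained-intron transcripts, a class that makes up 13.7% of that table. They are Ube2e1-203, Ube2e1-202 and Dph6-206. Of the bases of Ube2e1-203, 92.8% lie outside the exons of coding transcripts of the gene, and of Dph6-206 74.2%. Of the summed counts of Ube2e1-203 and Ube2e1-201, the retained-intron form held 99.9%, 99.8% and 73.3% in injured IP libraries 1, 2 and 3, against 0%, 21.7% and 14.1% in injured input. In injured blocked IP it held 0% of 8 counts, 96.8% of 62 and 100% of 394, so a high share was also found with the antibody blocked. In naive nerve it held 91.2%, 83.9% and 45.4% in IP, against 17.6%, 17.5% and 50.8% in input. The shares of the 3 injured IP libraries did not overlap those of injured input, while naive IP library 3 lay within the range of naive input. In naive blocked IP libraries 1 and 3 it held 0 of 755 and 0 of 385 counts. Ube2e1-203 is the leading transcript by its fold change between these naive IP and blocked libraries. Its low naive blocked share is thus part of the choice, and the naive IP and blocked shares carry no test.

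For Dph6 the IP and input shares overlapped in injured nerve. Dph6-206 held 57.7%, 58.9% and 78.6% of the counts of Dph6-206 and Dph6-201 in injured IP, against 66.7%, 64.0% and 63.4% in injured input, and 97.2%, 77.9% and 46.4% in injured blocked IP, a range that takes in all the injured IP and input shares. In naive nerve it held 83.8%, 97.5% and 80.8% in IP, against 80%, 35% and 75% in input. Each naive IP share was above each naive input share, the closest pair being 80.8% and 80%, and 40 to 52 counts stand behind each of those input shares. The naive IP libraries are those used to choose Dph6-206 as leading transcript, so its naive shares are a description. No source used here names the counting tool or its use of strand, so reads shared by overlapping transcripts of a gene may have been split between them in a way the tables do not show.

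**Figure D3:**
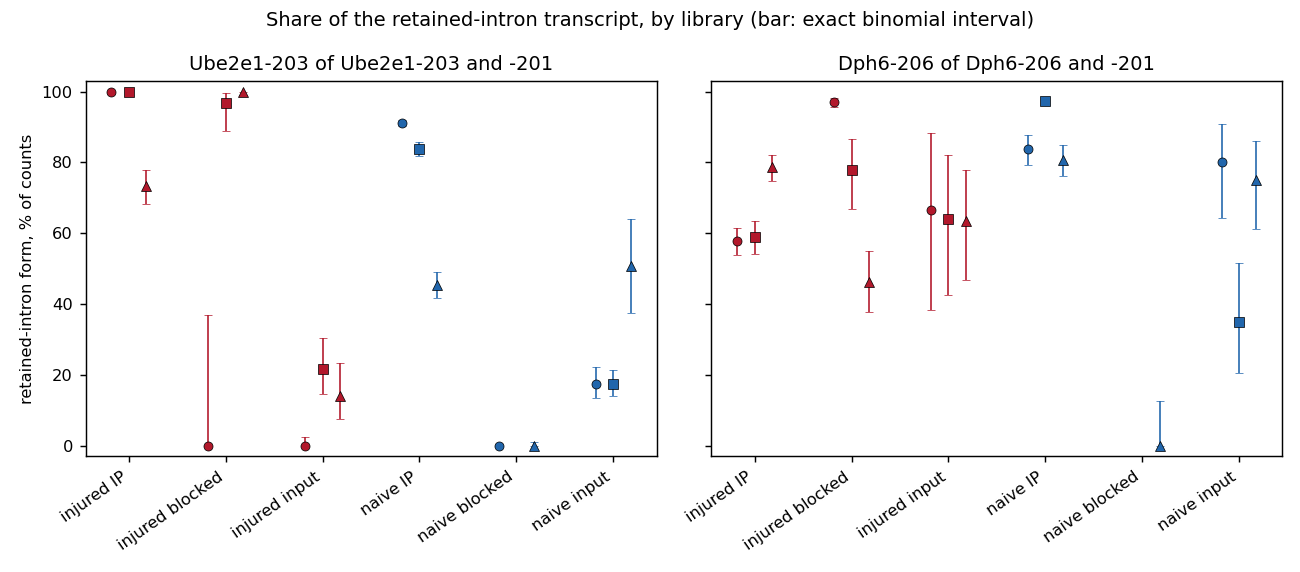
The y axis is the percentage of counts assigned to the retained-intron transcript, of the sum with the main coding transcript, in each library of injured IP, injured blocked IP, injured input, naive IP, naive blocked IP and naive input. Bars are 95% exact binomial intervals, which cover counting error only. For Ube2e1 the injured IP libraries lie at 73.3% or above and the injured inputs at 21.7% or below, while for Dph6 they overlap in injured nerve. Naive IP and naive blocked libraries were used to choose the transcripts.

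Nucleolin IP, made from the same kind of extract, asked whether the members were recovered with another RNA-binding protein. No member listed with nucleolin was called by edgeR in either condition. Over the 11840 transcripts in both nucleolin tables edgeR also called 0, as it did with PTBP1, so this does not set the antibodies apart. Agpat5-202 had 1.17, 1.63 and 5.14 CPM in injured nucleolin IP, against 0.0509, 5.64 and 4.87 CPM in injured blocked IP, and 14.35, 2.66 and 6.65 CPM in naive IP, against 0.291, 0.621 and 5.61 CPM in naive blocked IP. Dhrs2-201 had 5.18, 7.02 and 2.64 CPM in injured IP, against 0, 0 and 3.91 CPM in blocked IP, and 1.67, 4.65 and 5.69 CPM in naive IP, against 19.9, 0 and 8.84 CPM in blocked IP. Both overlapped in both conditions. Csrnp2-201 had 28.3, 28.3 and 28.4 CPM in injured IP, against 3.00, 41.6 and 25.9 CPM in blocked IP, and 41.1, 13.0 and 6.06 CPM in naive IP, against 16.2, 11.5 and 7.86 CPM in blocked IP. Its log2 fold changes were 0.27 ± 0.94 in injured and 0.76 ± 0.95 in naive nerve.

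Dph6-201 was the only one of the 4 members listed in both nucleolin tables whose injured IP libraries all exceeded the blocked ones. It had 2.59, 3.43 and 2.10 CPM in IP, against 0, 0.240 and 1.26 CPM in blocked IP (2.42 ± 1.28, edgeR adjusted p = 0.870). Of these 4, edgeR and DESeq2 called 0 in injured and 0 in naive nerve, and 0 had an unadjusted edgeR p under 0.05. Over all 11840 transcripts edgeR called 0% in both conditions. At an unadjusted p under 0.05, 5.41% were higher in injured and 8.32% in naive nerve, and DESeq2 called 2.70% and 5.91% higher. Every IP library lay above every blocked library for 1 of 4 members in injured nerve (12% of all transcripts) and for 0 of 4 in naive nerve (12.3%).

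Ube2e1-203, Dph6-206 and Wfdc13-201 were listed in neither nucleolin table, so their recovery with nucleolin was not measured. The remaining members were listed in 1 nucleolin table only, and all but Prdm1-203 were tested there. In injured nerve Prdm1-201 had 45.1, 28.5 and 6.06 CPM in nucleolin IP, against 0.0505, 0.540 and 10.0 CPM in blocked IP (2.91 ± 1.59, edgeR adjusted p = 0.770). Bard1-201 had 7.5, 16.9 and 13.5 CPM, against 7.57, 0.779 and 11.9 CPM (0.90 ± 1.06, edgeR adjusted p = 0.909). The groups of both overlapped. Ube2e1-202 (1.60 ± 1.90 in injured nerve) and Ube2e1-201 (−0.74 ± 1.30 in naive nerve) overlapped as well. Prdm1-203 had 25 counts over the 3 injured IP libraries and 7 over the blocked ones.

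The difference between the antibodies was tested in injured nerve, in 1 fit of the 12 IP and blocked libraries, for the 7 members listed with both. The PTBP1 enrichment exceeded the nucleolin enrichment by 8.18 ± 2.46 on the log2 scale for Agpat5-202, with an edgeR adjusted p of 0.249 and a DESeq2 adjusted p of 0.0111. For Dhrs2-201, at 0 in PTBP1 blocked IP, the unadjusted edgeR p was 0.0162 and the adjusted p 0.334 by edgeR and 0.0781 by DESeq2. Bard1-201 differed by 3.23 ± 1.56 and Csrnp2-201 by 2.56 ± 1.201, while Dph6-201 (0.68 ± 1.91) and Prdm1-201 (−1.59 ± 1.99) lay within their errors. edgeR called 0 of 7 members and 0% of 12618 transcripts, and at an unadjusted p under 0.05 it found 2 of 7 higher, beside 7.77%. DESeq2 called 1 of 7, Agpat5-202, beside 2.75% of transcripts called higher.

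**Figure D4:**
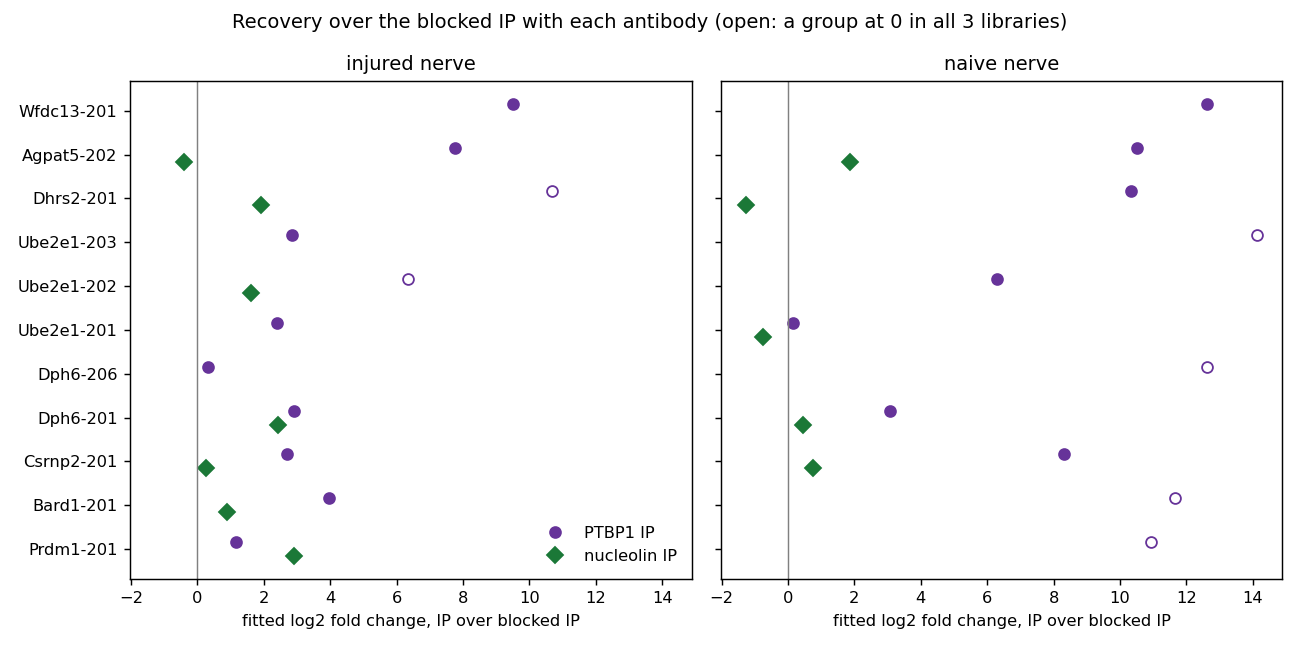
Fitted log2 fold changes of IP over blocked IP are shown for the 11 PTBP1-table members. Injured nerve is on the left and naive nerve on the right. Circles are PTBP1 and diamonds nucleolin, the latter drawn only where the transcript was listed with nucleolin. Open symbols mark transcripts with a group at 0 counts, whose fitted value depends on the fit's prior. In injured nerve PTBP1 lies at 7.75 and nucleolin at −0.41 for Agpat5-202, whereas for Prdm1-201 they lie at 1.16 and 2.91; naive PTBP1 values were used to choose the genes.

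Input RNA shows how the members' levels in the extract changed with injury. Bard1 and Prdm1 rose after crush, and edgeR called none of the others. Bard1-201 had 10.1, 12.5 and 9.44 CPM in injured input, against 1.41, 1.88 and 1.95 CPM in naive input, a log2 fold change of 2.61 ± 0.49 with an edgeR adjusted p of 0.00191. Prdm1-201 had 15.1, 3.39 and 6.72 CPM in injured input, against 0.578, 0.313 and 1.33 CPM in naive input (3.45 ± 0.75, edgeR adjusted p = 0.00483). For both, every injured library lay above every naive one. The 2 of 9 members called by edgeR stand beside 27.8% of 14095 transcripts called in either direction.

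Dhrs2-201 and Agpat5-202 were lower in every injured library without being called by edgeR. Dhrs2-201 had 4.20, 4.60 and 1.36 CPM in injured input, against 9.63, 12.5 and 7.42 CPM in naive input (−1.57 ± 0.56). Its adjusted p of 0.0532 by edgeR was close to the threshold, and DESeq2 gave 0.01, which made 3 of 9 members called by DESeq2, 2 of them higher, beside 15.8% of transcripts called higher. Agpat5-202 had 8.16, 0.404 and 4.96 CPM in injured input, against 13.4, 8.78 and 10.8 CPM in naive input (−1.34 ± 0.74, edgeR adjusted p = 0.203). Non-overlap of this kind was found in 2 of 9 members in each direction, beside 22.5% of all transcripts above and 21.9% below. Csrnp2-201 had 13.6, 18.2 and 15.9 CPM in injured input, against 7.06, 18.1 and 12.7 CPM in naive input (0.34 ± 0.41). Ube2e1-203 had 0, 2.02 and 0.708 CPM in injured input, against 3.60, 4.13 and 1.53 CPM in naive input (−1.62 ± 0.85), and Ube2e1-201, Dph6-201 and Dph6-206 had log2 fold changes between 0.11 and 0.31 with overlapping libraries.

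Cell markers moved with injury in the same inputs. The summed level of 6 macrophage markers (Cd68, Adgre1, Csf1r, Lgals3, Gpnmb and Aif1, all listed) was 1950 to 2520 CPM in injured input and 73.7 to 138 CPM in naive input, and 3 of the 6 rose. Lymphocyte markers summed to 14.2 to 18.3 CPM in injured and 2.35 to 5.07 CPM in naive input, with 1 of 3 listed genes higher. Schwann and myelin markers summed to 4210 to 6390 CPM in injured and 24500 to 47000 CPM in naive input, with 1 of 4 listed genes higher and 3 lower (Egr2 and Prx not listed). The fibroblast markers stood at 14200 to 16200 CPM in injured and 17400 to 22700 CPM in naive input (2 of 4 listed genes lower, Pdgfra not listed). Axon and neuron markers were far scarcer, at 100 to 124 CPM in injured and 119 to 167 CPM in naive input, with 1 of 5 listed genes higher and 1 lower (Prph not listed). The part of these shifts in the changes of Bard1, Prdm1 and Dhrs2 was not tested, and in bulk RNA fewer cells of a type and less RNA per cell cannot be told apart.

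**Figure D5:**
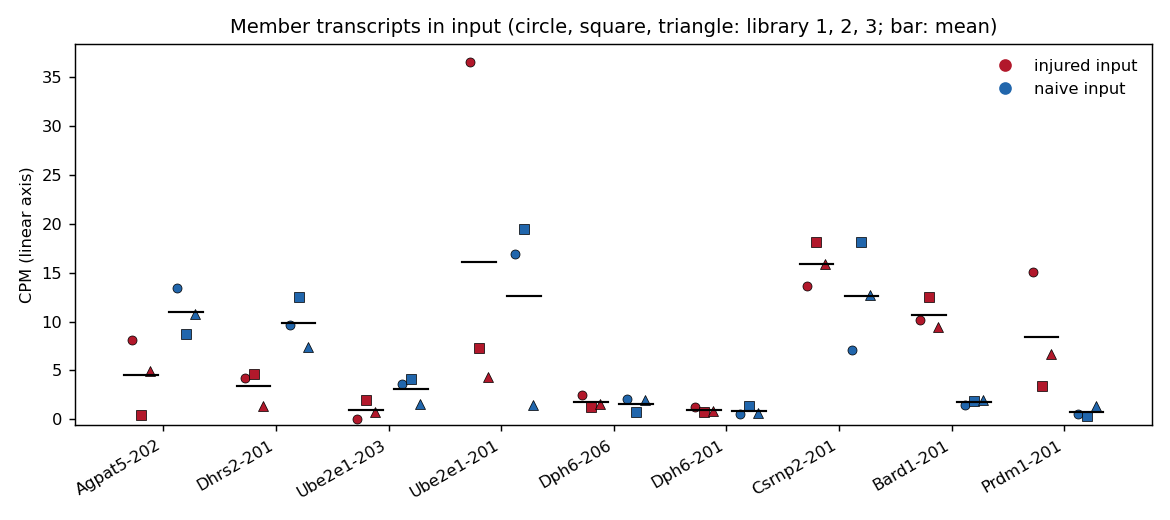
Levels of the 9 members listed in the input table are shown in CPM on a linear axis, with the 3 injured inputs left of the 3 naive inputs of each transcript and a bar at the mean. Bard1-201 lies at 9.44 CPM or more in injured and 1.95 CPM or less in naive input, and Dhrs2-201 lies lower in all injured inputs.

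Across the 12 PTBP1 libraries some members rose and fell together. Agpat5-202 and Dhrs2-201 had a Pearson r of 0.990 on log2(CPM + 1), Agpat5-202 and Wfdc13-201 0.973, and Dhrs2-201 and Wfdc13-201 0.957. Agpat5-202 and Dhrs2-201 were each the transcript of another gene most like the other, out of all that passed the filter. Transcripts with an r over 0.9 numbered 99 for Agpat5-202, 67 for Dhrs2-201 and 113 for Wfdc13-201. An r that high was thus not particular to pairs of members. Prdm1-201 followed these 3 far less closely, with r from 0.349 to 0.429. Csrnp2-201 followed Ube2e1-203 (0.929) and Bard1-201 (0.912), and Ube2e1-201 was unrelated to Ube2e1-203 of its own gene (0.0474). The most alike transcripts outside the set were Gm26584-201 for Wfdc13-201 (0.988), Slc25a5-203 for Ube2e1-202 (0.991), Kctd12-202 for Bard1-201 (0.972), Brd8-205 for Ube2e1-203 (0.968), Igbp1-202 for Csrnp2-201 (0.946), Tent5c-201 for Prdm1-201 (0.957), Tubb5-201 for Dph6-201 (0.970), Zfp111-203 for Dph6-206 (0.920) and Gm15551-201 for Ube2e1-201 (0.980). The libraries fall into IP and blocked groups that differ strongly, so these values describe a shared pattern and carry no test.

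Relatives and partners of the 8 genes were read as a list. Of 36 genes listed as relatives or partners, 24 were measured in injured PTBP1 IP over blocked IP, edgeR called 0, 2 were higher and 1 lower at an unadjusted p under 0.05, and the median log2 fold change was 0.04, beside 0.02 over all transcripts. In naive nerve the median was 0.53, beside 0.05, with 0 called by edgeR and 3 higher and 0 lower at an unadjusted p under 0.05. Among the largest values in injured nerve were 5.06 ± 2.14 for Dhrs7b-202, a dehydrogenase/reductase relative of Dhrs2, and −3.86 ± 2.83 for Prdm10-202, with edgeR adjusted p-values of 0.338 and 0.720. The Prdm10-202 value rests on 1 blocked library: blocked IP had 92.6, 0 and 0 CPM, against 4.13, 0.535 and 1.68 CPM in IP. Brca1-201, the partner of Bard1, had 7.08, 8.65 and 16.9 CPM in injured IP, against 6.97, 6.37 and 17.9 CPM in injured blocked IP. The 2 groups overlapped. In input, where 27.8% of all transcripts were called, 6 of 23 measured relatives rose and 3 fell, among them Brca1-201 (3.79 ± 0.80) and the Brca1-associated helicase gene Brip1 (Brip1-201, 2.19 ± 0.48), with edgeR adjusted p-values of 0.00404 and 0.00479. The antiprotease gene Slpi (Slpi-201) rose as well: injured input had 5.69, 3.15 and 3.19 CPM, while the 3 naive inputs had none. Dhrs9-201 (5.97 ± 0.71), Agpat4-201 (1.13 ± 0.25) and Prdm4-201 (0.93 ± 0.32) also rose, and Wfdc1-201 (−3.50 ± 0.37), Csrnp3-204 (−2.04 ± 0.63) and Ube2e3-201 (−1.03 ± 0.24) fell.

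For orientation, 17 genes known from other systems as PTBP1 targets were read in the same way. Of 12 measured in injured PTBP1 IP over blocked IP, edgeR called 0, 2 were higher at an unadjusted p under 0.05, 4 had every IP library above every blocked library, and the median log2 fold change was 0.99. Over all transcripts these were 10.8%, 16.6% and a median of 0.02. The largest were 4.23 ± 1.75 for Cdkn1b-202, the cyclin-dependent kinase inhibitor p27, 3.58 ± 2.01 for Apaf1-207, an apoptosis factor, and −3.06 ± 1.93 for Fgfr2-217, a growth factor receptor, with edgeR adjusted p-values of 0.320, 0.549 and 0.623. In input, Ptbp3-201 (1.32 ± 0.28) and Hif1a-204 (2.87 ± 0.66) rose and Ptbp2-201 (−0.91 ± 0.26) fell.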

How the data were processed

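For 30 libraries the authors deposited whole-number counts of each transcript, in tables that list transcripts with at least 5 counts in all 3 libraries of a group (96.7% to 100% of rows). Totals of listed transcripts are therefore not the full depth. CASAVA 1.8.2 and edgeR were used on GRCm38/mm10, per the submitters' processing notes. No source used here names the aligner or counter. The authors' log2 fold changes and false discovery rates (adjusted p-values) were copied from the deposited tables, and 114 other columns of single libraries were not used.

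Counts were tested here with edgeR 4.0.16 in R 4.3.3 (quasi-likelihood test, TMM scaling, filterByExpr, two-sided, Benjamini-Hochberg over all transcripts, threshold 0.05). Separate fits held the 12 libraries of each antibody, the 6 inputs, and the PTBP1 libraries beside the inputs. SE belongs to the fitted log2 fold change. CPM uses TMM-scaled totals. Ratios of pooled rates have exact 95% counting intervals, with a floor of 3 counts over a group for groups at 0. Alternatives were DESeq2 1.42.0, RLE scaling, no filter, a replicate block, fewer libraries and each library left out. The test between antibodies was chosen after seeing the data. Scripts were tested on simulated counts.

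Coordinates and sequences come from GENCODE M21 on GRCm38, which held 19991 of 20440 transcript identifiers. Named are all listed transcripts of the 8 genes, list members that passed a test and the 3 with the largest change in injured PTBP1 IP, and the most alike transcripts, apart from some items that are not reported here. Brca1-201 in PTBP1 IP was added after its values were seen. Members and lists were chosen with earlier results of these data known. Repeat numbers were taken to pair the injured PTBP1 IP and blocked libraries, because the deviations of same-numbered libraries from their group means correlated at 0.113, 0.142 and 0.313. In each other comparison at least 1 same-numbered pair correlated at 0.0847 or less, and no pairing was taken there. The main fits are unpaired in all comparisons, and the replicate block is among the alternatives.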

Additional observations from a re-analysis of the deposited data

How the results depend on the processing

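edgeR called 0 transcripts in both PTBP1 and both nucleolin comparisons of IP over blocked IP, and DESeq2 called 942 (PTBP1, injured), 1134 (PTBP1, naive), 322 (nucleolin, injured) and 762 (nucleolin, naive), with 4 members in injured PTBP1. Between antibodies DESeq2 called 419 transcripts and 1 member, against 0 by edgeR. For PTBP1 over input in injured nerve edgeR called 127 transcripts, RLE scaling 197, DESeq2 641 with 7 members, and the 6 libraries alone 877 with 7 members. RLE scaling moved the median of all transcripts to 0.17 from 0.02 in injured PTBP1, to 0.01 from −0.11 in naive nucleolin, and to 0.12 from −0.06 over input. The cause of these differences was not tested.

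Leaving out 1 library at a time, calls ranged from 0 to 4 (injured PTBP1), 0 to 15 (injured nucleolin), 0 to 320 (naive nucleolin), 0 to 26 (between antibodies, 0 members), 2514 to 3821 (input, 2 or 3 members) and 0 to 372 (over input, 0 or 1 member). Calls were 4 without injured PTBP1 IP 3, 15 without injured nucleolin IP 3, 135 without naive nucleolin IP 3 and 320 without naive nucleolin blocked 3. Between antibodies they were 26 without PTBP1 IP 3, 9 without PTBP1 blocked 3, 9 without nucleolin IP 3 and 1 without nucleolin blocked 1. Over input, calls were 372 without IP 3, 3 without IP 2, and 0 without IP 1 or any injured input. In input they were 2575 without injured library 2 and 2514 without naive library 2.

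Signs turned in 22 member values, all with a library left out. The lowest and highest values with 1 library left out were −0.12 and 2.59 for Dph6-206 and −0.86 and 3.91 for Ube2e1-201 in injured PTBP1, and −0.43 and 1.35 for Ube2e1-201 in naive PTBP1. With nucleolin they were −0.20 and 0.91 for Csrnp2-201 and −1.27 and 0.045 for Agpat5-202 in injured nerve, and −0.31 and 1.19 for Csrnp2-201 and −0.001 and 2.24 for Dph6-201 in naive nerve. In input they were −0.15 and 0.25 for Dph6-201, −0.25 and 0.31 for Dph6-206, and −1.22 and 0.77 for Ube2e1-201. Between antibodies they were −1.36 and 1.26 for Dph6-201, −1.77 and 5.41 for Ube2e1-202, and −5.17 and 0.029 for Prdm1-201. Without injured PTBP1 IP library 3, Ube2e1-202 had no count in either injured PTBP1 group.

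With the replicate block, 0 transcripts were called in the PTBP1 and nucleolin comparisons of IP over blocked IP, 4352 in input and 161 over input. Dhrs2-201 in input passed with the block (−1.69, adjusted p = 0.0248), with no filter (0.0494) and without injured input 1 (0.0462). Blocking changed no other call of a member. Outside injured PTBP1 at least 1 same-numbered pair correlated at 0.0847 or less, and each library correlated best with its own number except number 1 in injured nucleolin and number 2 in input.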
